A study of Mus musculus with 20 samples.

Results

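The habenula, a small epithalamic structure that relays forebrain signals to monoaminergic and interpeduncular targets, was examined here for 8 transcription factor genes: Nr4a2, Etv1, Irx1, Irx2, Tcf4, Zic1, Dbx1 and Gbx2. They were taken by symbol and are 8 of 37994 genes in the developmental table and 8 of 36104 in the table of left and right habenula. Every symbol was found in both tables. Pou4f1, a POU homeodomain factor made by habenula neurons as they leave the cell cycle and kept by them afterwards, was set beside the 8 genes.

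As background, dorsal diencephalic progenitors that express Dbx1 produce habenula neurons, while Gbx2 is a homeodomain factor of the neighbouring thalamus and is widely used to mark its young neurons. Irx1 and Irx2 are Iroquois homeodomain factors that pattern the neural tube, and Zic1 is a zinc-finger factor of the dorsal neural tube. Tcf4 is an E-protein, the widely expressed partner of tissue-restricted basic helix-loop-helix factors, and is a different gene from Tcf7l2, the Wnt effector that is sometimes also called TCF4. Nr4a2 (Nurr1) is an orphan nuclear receptor best known from dopamine neurons, and Etv1 (Er81) is an ETS-domain factor found in several terminally differentiating neuron classes.

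Cells were measured by CEL-Seq2 in 384-well plates, a method that counts the 3′ ends of messenger RNAs by unique molecular identifiers (UMIs). A developmental series of 15 plates came from Brn3a-tauLacZ mice, a line named for a tau-lacZ reporter at Brn3a, the older name of Pou4f1. It held 2 plates for every stage but E12, which had 1: E11, E13, E15 and E18 before birth, then P4, P7 and adult. The other 5 plates, called the second E18 set in the figures and the side-separated set in the text, held C57BL/6 habenula at E18: 2 of the left side, 2 of the right and 1 of both sides. The sources used here do not give how many altered Pou4f1 alleles the reporter mice carried, their sex, or any gate used to sort cells, and the labels give no agent or treatment for either set.

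Wells were kept with at least 1000 counts, at least 500 genes and at most 20% mitochondrial counts, which left 3729 of 5756 wells in the series and 1082 of 1920 in the side-separated set. Plates held 54 to 345 kept wells, and kept plate totals ran from 758697 to 7760372 counts. The plate was the replicate. The plates are not stated to come from separate animals, so p-values measure the spread between plates. Neuron marker genes were detected on every plate, 10 of 10 each time, and the summed level of 10 medial habenula markers was 265.9 to 7774 CPM (CPM scales the counts of the kept wells of a plate to a sum of 1e6). Lateral habenula markers summed to 130.9 to 1299 CPM.

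Some plates stood apart. A Pou4f1 UMI was found in 28.09% of kept wells on E18 plate 1 against 85.45% on E18 plate 2, in 51.09% on E13 plate 2 against 71.24% on E13 plate 1, in 80.85% on E15 plate 1 against 90.07% on E15 plate 2, and in 37.5% on adult plate 1 against 52.63% on adult plate 2. E18 plate 1 and E13 plate 2 also had high progenitor marker sums of 3355 and 1800 CPM, and adult plate 1 had the fewest kept wells of the series, 56. Adult plate 1 also had the lowest median depth, 5057.7 counts per well, and a median of 11.87% mitochondrial counts, against 4.096% to 6.558% on the other plates, and the part of this in its lower levels of Nr4a2, Etv1, Irx1, Irx2 and Zic1 than on adult plate 2 was not tested. Tests across stages were therefore also run without these 4 plates, an alternative chosen after the data were seen. Column names number plates and wells only, so sharing of cells between plates could not be read from them, and no doublet caller was run.

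Nr4a2 and Etv1 had their highest levels in the first postnatal week. Nr4a2 lies at chr2:57106830-57124003 on the minus strand (GRCm38). Its level was 87.36 and 138 CPM on both E11 plates, 328.5 on that of E12, 211.5 and 96.22 at E13, 109.2 and 391.2 at E15, and 25.94 and 151.6 at E18. The P4 plates had 854.3 and 1045.8 CPM, the P7 plates 741.8 and 815.8 and the adult plates 314 and 521.5. The P4 and P7 plates lay above every other plate and did not overlap each other, whereas the ranges of E11, E13, E15, E18 and adult each overlapped the next in order. In sums over a plate, fewer cells of a type and less RNA per cell cannot be told apart.

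Etv1, at chr12:38779380-38870484 on the plus strand, had its lowest levels at E11. Its level was 9.468 and 7.967 CPM at E11, 14.53 at E12, 64.82 and 151.8 at E13, 176.6 and 781.8 at E15, and 81.43 and 75.41 at E18. The plates of P4 were at 1139.3 and 1470.3 CPM, of P7 at 1030.7 and 978.1 and of adults at 333.1 and 762. The E11 plates were below all others, the P4 plates were above all others, and the E15 plates lay far apart from each other.

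**Figure D1:**
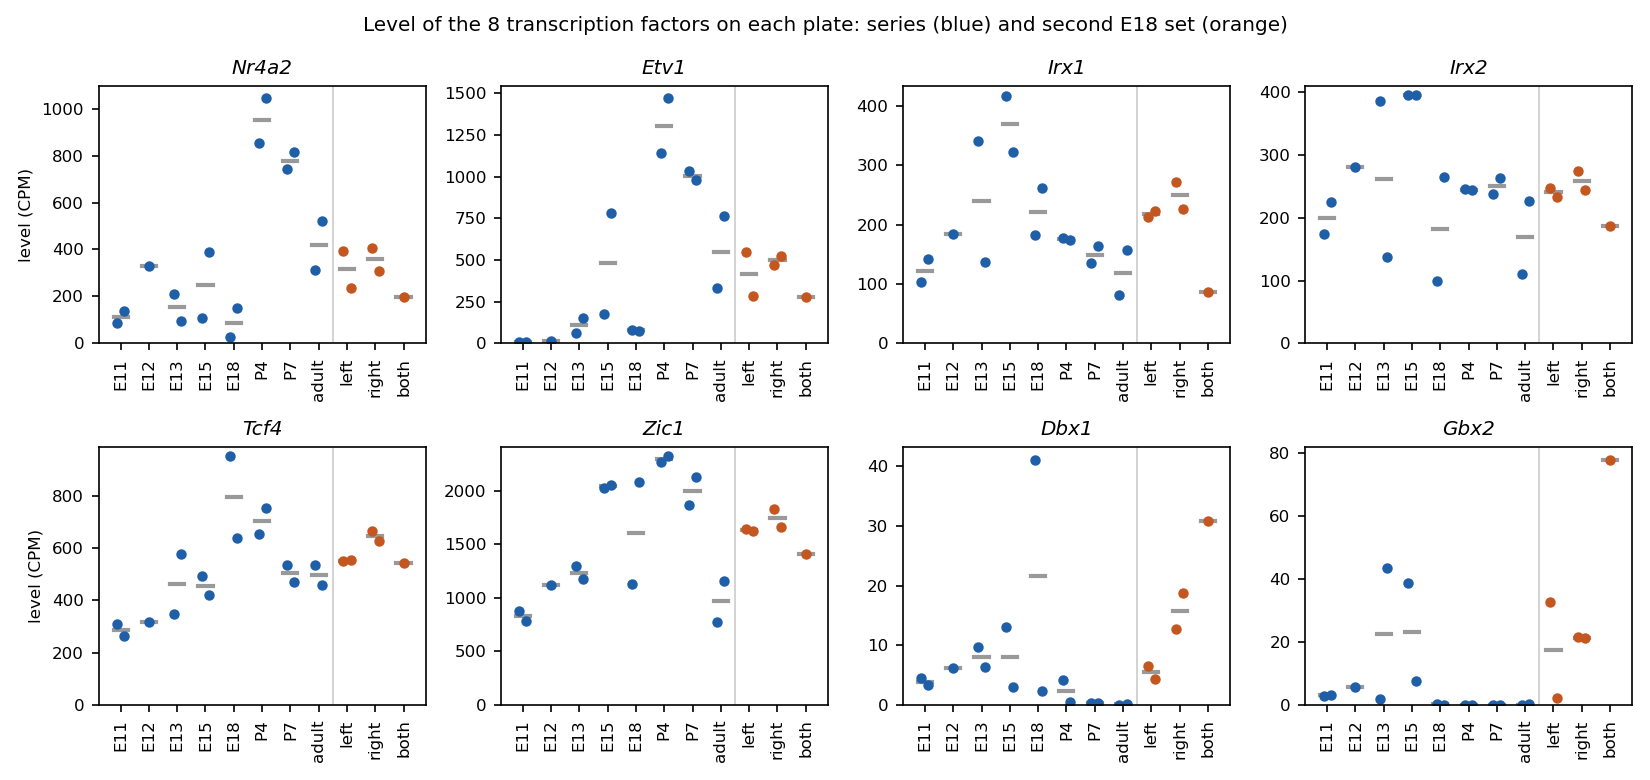
Level of each of the 8 genes on every plate, in CPM on a linear axis with its own scale per gene, against stage, with side-separated E18 plates (the second E18 set, orange) at the right; each point is 1 plate and grey marks are group means. Nr4a2 and Etv1 are highest at P4 and P7, and Etv1 is lowest at E11. Gbx2 falls to 0 on most series plates from E18 plate 2 onwards and is above 0 on all side-separated plates.

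Irx1 and Irx2 share a cluster on chromosome 13, with 665096 bases between them, at chr13:71957921-71963723 on the minus strand and chr13:72628820-72634198 on the plus strand. Irx1 was measured at 103.8 and 141.6 CPM at E11, 184.4 at E12, 341.7 and 137.6 at E13, 417.2 and 322.9 at E15, and 182.5 and 261.6 at E18. The P4 plates had 177.1 and 174.3, those of P7 135.4 and 164, and those of adults 81.76 and 156.7. Irx2 was measured at 174.7 and 226.1 CPM at E11, 281.4 at E12, 386.1 and 137.7 at E13, 395.5 and 395.2 at E15, and 99.79 and 264.6 at E18. The P4 plates had 246.4 and 243.9, those of P7 238.8 and 263.9, and those of adults 110.8 and 227.6. Both genes had their highest stage mean at E15, and on both the low plates of E13, E18 and adult were the same 3 plates, E13 plate 2, E18 plate 1 and adult plate 1, which are among the 4 with the lower Pou4f1 share.

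Zic1 and Tcf4 were detected widely at every stage. Zic1, at chr9:91358058-91365810 on the minus strand, was at 877 and 782.7 CPM at E11, 1118.6 at E12, 1300.2 and 1172.6 at E13, 2032.6 and 2056.3 at E15, and 1131.9 and 2080.7 at E18. The P4 plates had 2270.4 and 2329.3, those of P7 1868.2 and 2133.1, and those of adults 779 and 1159.9. Its P4 plates were above all others and its E11 and adult plates were lowest by mean, with E18 plate 1 and the E12 plate inside the adult range. Zic1 overlaps Zic4 on the opposite strand, and the strand setting of the counting is not given, so its counts may hold Zic4 reads.

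Tcf4, on chromosome 18 from 69343356 to 69689079 on the plus strand, was at 310.8 and 261.9 CPM at E11, 317.1 at E12, 347.7 and 578.9 at E13, 492.8 and 419.9 at E15, and 951 and 639.9 at E18. The P4 plates had 655.8 and 754.7, those of P7 537.2 and 469.5, and those of adults 533.9 and 459.2. E11 was lowest with no overlap, and E18 and P4 overlapped each other and lay above the rest. Its highest plate, E18 plate 1, was the plate with the lowest Pou4f1 share, on which Nr4a2 and Irx2 had their lowest levels of the series. A median of 48.98% of Tcf4 UMIs on a plate (43.83% to 61.76%) were in the deposited unspliced table, against a median of 23.2% over all genes. The other members were below that median, from 12.21% for Etv1 and 10.34% for Nr4a2 to 0% for Dbx1 and Gbx2. A ribosomal RNA gene model, Gm24845, lies within Tcf4 on the same strand.

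Dbx1 and Gbx2 were sparse. Dbx1, at chr7:49631499-49636849 on the minus strand, was at 4.445 and 3.27 CPM at E11, 6.109 at E12, 9.66 and 6.373 at E13, 13.03 and 2.972 at E15, and 41.11 and 2.261 at E18. After birth the P4 plates had 4.242 and 0.4601 CPM, the P7 plates 0.2577 and 0.3517 and the adult plates 0 and 0.1988, where the 0 allows up to 3.99 CPM. The value of E18 plate 1 came from 103 UMIs in 48 wells and was the highest of the series.

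Gbx2, at chr1:89927956-89931179 on the minus strand and overlapped by D130058E05Rik on the opposite strand, was at 2.898 and 3.064 CPM at E11, 5.689 at E12, 1.704 and 43.58 at E13, 38.58 and 7.432 at E15, and 0.399 and 0 at E18. It was 0 on both P4 plates, both P7 plates and adult plate 1, and 0.1988 CPM on adult plate 2. The zeros allow up to 2.27 CPM on E18 plate 2, 0.511 and 0.462 at P4, 0.388 and 0.529 at P7, and 3.99 on adult plate 1; these limits cover counting error only. E13 plate 2 and E15 plate 1 stood above all other series plates.

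The question of which members differed between stages was put to edgeR's quasi-likelihood test on plate sums, over the 7 stages with 2 plates. Etv1 (adjusted p = 0.00024), Gbx2 (0.00517), Nr4a2 (0.0121), Zic1 (0.0141), Tcf4 (0.0153) and Dbx1 (0.0223) passed an adjusted p of 0.05, and Irx1 (0.0595) and Irx2 (0.376) did not. That is 6 of 8 members, beside 46.4% of the 17453 genes tested. A fit without the 4 plates of lower Pou4f1 share left 4 of the 7 stages with 1 plate each, assumed to vary like the others. It also left out the low plates of Irx1 and Irx2 at E13, E18 and adult, so it cannot decide whether these genes differed. Calls of Tcf4 were lost without either E11 plate (0.0556 without plate 1, 0.0769 without plate 2) or P4 plate 2 (0.0549), of Zic1 without E11 plate 2 (0.0561), and of Dbx1 without either P7 plate (0.0702 and 0.0642) or adult plate 2 (0.059).

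When the sums were limited to wells with at least 1 Pou4f1 UMI, called Pou4f1-positive below, 7 of 8 members differed between stages by the same edgeR test, beside 49.4% of 16353 genes. Etv1 (adjusted p = 0.00011), Nr4a2 (0.00198), Tcf4 (0.00344), Zic1 (0.00411), Gbx2 (0.00775), Irx1 (0.00832) and Dbx1 (0.0206) passed, and Irx2 (0.201) did not. The Dbx1 call was lost without P7 plate 1 (0.065).

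Between successive stages, Etv1 rose at 2 steps and Nr4a2 at 1, which made 3 of 48 member comparisons called. Over all 17453 genes tested, 4350 calls were made at the same steps, and the member count was not tested against this. From E18 to P4, where 19.6% of genes were called (9.2% higher and 10.4% lower), Etv1 rose by 4.28 ± 0.68 on the log2 scale (SE, 2 plates a stage, edgeR adjusted p = 0.00289) and Nr4a2 by 3.61 ± 0.84 (0.0146). Both P4 plates were above both E18 plates for each gene. The medial habenula marker sum was 265.9 and 3833.5 CPM at E18 and 6456.7 to 7329.7 at P4. Of it, Nwd2 alone was 124.2 and 3023.4 CPM at E18 and 4732.3 and 5722.1 at P4. The sum of vascular and fibroblast markers was 496.9 to 1224.2 at E18 and 113.5 to 177.7 at P4. The part of these marker changes in the rise was not tested. The Etv1 call held under 21 of 21 other settings, while that of Nr4a2 was lost when the 4 E18 and P4 plates were fitted alone (0.108) and without P4 plate 2 (0.0733). Its difference was 2.78 without E18 plate 1 and 5.57 without E18 plate 2. From E11 to E13, where 1.45% of genes were called (0.854% higher and 0.596% lower), Etv1 rose by 3.47 ± 0.68 (0.0343), and this call was lost without any of 7 of the 14 plates. With E11 plate 1 left out the adjusted p was 0.258, with E11 plate 2 left out 0.314 and with E13 plate 2 left out 0.28. The call was also lost without either P4 plate and without either P7 plate. The sum of vascular and fibroblast markers was 4.903 and 66 CPM on the E11 plates and 351.2 and 1470.1 on those of E13. The neuron marker sum was 15190.3 and 15335.8 CPM at E11 and 5981.8 and 11015.9 at E13. The part of these sums in the Etv1 rise from E11 to E13 was not tested.

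In Pou4f1-positive wells the same 3 differences passed the edgeR test. Etv1 rose by 4.05 ± 0.74 from E11 to E13 (adjusted p = 0.0189, 1.78% of genes called) and by 4.66 ± 0.73 from E18 to P4 (0.0015, 20.4% called), and Nr4a2 rose by 3.63 ± 0.67 from E18 to P4 (0.0034). No member passed from E13 to E15 (0.0917% of genes called in all wells), E15 to E18 (0.195%), P4 to P7 (0.00573%) or P7 to adult (3.58%), where Zic1 differed by -1.16 ± 0.34 with an adjusted p of 0.0863. None passed at these steps in Pou4f1-positive wells either, where 0.11%, 0.159%, 0.00612% and 3.68% of genes were called. Between E15 and E18 Etv1 differed by -2.77 with an adjusted p of 0.105.

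The size of the E18 to P4 rise depends on the E18 plates, and the side-separated set gives another view of E18 in another mouse line. There Etv1 was at 547.2 and 286.7 CPM on the left plates, 472.6 and 525.6 on the right and 276.4 on the plate of both sides, all above the 75.41 and 81.43 of the series at E18. Nr4a2 was at 395.3 and 237.9 CPM left, 406.9 and 308.7 right and 196.4 on both sides, also above both E18 plates of the series. Every one of these side-separated values was below every P4 value. The mouse line and the table differ between the sets, so this difference was not tested.

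Nr4a2 belongs to the NR4A family, whose members are induced rapidly by stimulation or cell dissociation, so a list of 14 dissociation-response genes was set beside it. From E18 to P4 the edgeR test called 3 of the 14 higher, beside 9.2% of all genes, Hspa1a by 3.21, Hspa1b by 2.15 and Nr4a1 by 2.14 on the log2 scale, and none of them lower. Nr4a1 was at 5.187 and 37.69 CPM at E18 and 85.07 and 69.05 at P4, whereas Nr4a3, at 34.32 and 189.2 against 89.25 and 56.46, and Fos, at 77.51 and 408.6 against 402.8 and 352.8, overlapped between the stages. The list summed to 779 and 1871 CPM at E18, 1339 and 1013 at P4 and 2397 and 3288 in the adult, where Nr4a2 was lower than at P4. The part of this response in the Nr4a2 levels was not tested.

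Levels per plate were followed by the share of kept wells that held a UMI of each gene. Wells that held a member were deeper than wells that did not on 20 of 20 plates for Nr4a2, Etv1, Irx1 and Irx2, so each well was thinned to 2000 UMIs for shares. Thinning left out shallower wells, and 3591 series wells and 1041 side-separated wells remained. At that depth Nr4a2 was found in 14.75% and 18.88% of E11 wells, 18.69% on E18 plate 2 and 4.215% on E18 plate 1, 75.9% and 80.63% of P4 wells, 66.98% and 70.92% of P7 wells, and 22.5% and 45.57% of adult wells. Before thinning the P4 shares of Nr4a2 were 95.47% and 96.89%, and those at E11 were 40.78% and 44.93%. The shares of P4 and P7 stood above all others at both depths.

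Etv1 was found in 1.967% and 1.18% of thinned E11 wells, 10.37% and 18.6% at E13, 21.47% and 50% at E15, and 12.64% and 12.15% at E18. The P4 plates had 73.74% and 82.54%, those of P7 64.51% and 69.15%, and those of adults 50% and 51.68%. Its unthinned shares were 8.414% and 9.275% at E11 and 93.03% and 95.65% at P4. The order of the stages matched that of the levels, with E11 at the bottom and P4 at the top.

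Zic1 was the member found in most wells, 62.5% to 98.31% of thinned wells on a series plate, with the adult plates (62.5% and 65.75%) lowest and E11 (72.46% and 66.96%) next. Irx1 ranged from 12.5% to 50.85%, Irx2 from 13.18% to 54.11% and Tcf4 from 33.92% to 77.78%. Tcf4 peaked on E18 plate 1, and Irx2 was lowest on E13 plate 2. Dbx1 and Gbx2 reached 5.747% and 4.52% at most in the series, and 7.317% and 7.927% on the side-separated plate of both sides.

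Wells with under 100 counts were taken as empty and read for free RNA. These 1147 wells held 90 UMIs of the 8 members among 33140 UMIs in all. Whether this member share differs from that of kept wells was not tested. In adult tissue, wells rich in oligodendrocyte markers gave another reference, by a rule chosen after values were seen: at least 4 of 6 oligodendrocyte markers and fewer than 5 of the 10 neuron markers. They were set against wells with at least 5 neuron markers and fewer than 4 oligodendrocyte markers, called neuron-marker wells of the adult. On adult plate 2 there were 24 of the former, with a median of 5829.6 counts, and 160 of the latter, with a median of 18341.6 counts, while adult plate 1 had 9 and 0. In thinned wells Pou4f1 was found in 4.167% of the former and 36.88% of the latter, Irx2 in 4.167% and 40.62%, Nr4a2 in 12.5% and 60%, and Zic1 in 25% and 87.5%.

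Etv1 and Tcf4 did not follow that pattern. Etv1 was found in 70.83% of the oligodendrocyte-marker wells (95% exact Clopper-Pearson interval 48.91% to 87.38%, for counting error only) and in 66.25% of the neuron-marker wells. Tcf4 was found in 79.17% and 45%. The oligodendrocyte marker sum was 8938 and 2440 CPM on the adult plates, and its part in the adult Etv1 and Tcf4 levels was not tested.

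Pou4f1 itself, described here only as the reference, was at 837.8 and 787.7 CPM at E11, 149.4 and 770.8 at E18 and 159.7 and 211.3 in the adult, and its stage difference over all kept wells did not pass the edgeR test (adjusted p = 0.129). Pou4f1-positive wells were deeper than the others on 20 of 20 plates, by a ratio of medians of 1.27 to 5.22 (median 2.4). The overlap of each member with Pou4f1 was therefore given both as fitted on all counts and after thinning, where a well counts as positive only if a Pou4f1 UMI survived.

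In the series, 6 members could be tested between Pou4f1-positive and Pou4f1-negative wells of the same plate (15 plates, edgeR with plate as a block), and 6 of 6 differed, beside 35.8% of the 10147 genes tested (19.2% higher and 16.6% lower). Nr4a2 was higher with Pou4f1 by 1.66 ± 0.24 on the log2 scale (adjusted p = 3.37e-05), Irx2 by 1.6 ± 0.23 (2.44e-05), Irx1 by 0.92 ± 0.2 (0.00113) and Zic1 by 0.9 ± 0.16 (0.000164). Tcf4 was lower by the same test, at -0.99 ± 0.14 (2.98e-05). Dbx1 and Gbx2 were removed by the filter on low counts and are described by values alone.

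Thinning shrank these differences without ending the calls: Nr4a2 to 0.43 (adjusted p = 0.0162), Irx2 to 0.42 (0.0182), Irx1 to 0.34 (0.0222), Zic1 to 0.35 (0.00383) and Tcf4 to -0.66 (9.19e-05), all by edgeR. Etv1 differed by 1 ± 0.38 (0.0446), and this call was lost under 15 of 24 other settings, among them thinning (0.31, adjusted p = 0.171), DESeq2 (0.0584), neuron-marker wells alone (0.0783) and leaving out the 4 plates of lower Pou4f1 share (0.0755).

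Values by plate show where Nr4a2 and Etv1 followed Pou4f1 and where they did not. In Pou4f1-positive wells Nr4a2 was at 89.78 and 144.4 CPM at E11, 408 on E15 plate 2, 875.7 and 1068 at P4 and 765.3 and 833.6 at P7, against 34.99 and 37.81, 102.5, 219.3 and 334, and 227.7 and 429.9 in the negative wells. Positive wells were higher on both plates of every stage except E18, where plate 1 had 35.53 against 21.31 CPM and plate 2 had 133 against 401.1. The negative value of plate 2 rests on 16 wells with a median of 3512 counts. The most Nr4a2 UMIs in 1 well of that plate was 26. Etv1 in positive wells was at 1168 and 1506 CPM at P4 and 1061 and 1003 at P7, against 287.1 and 349, and 364.4 and 433.9, in negative wells. At E11 it was lower in positive wells, 8.288 and 7.602 against 34.99 and 13.75 CPM, as on the E12 plate, 11.62 against 85.25, and at E18, 41.65 and 74.57 against 100.6 and 86.57.

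**Figure D2:**
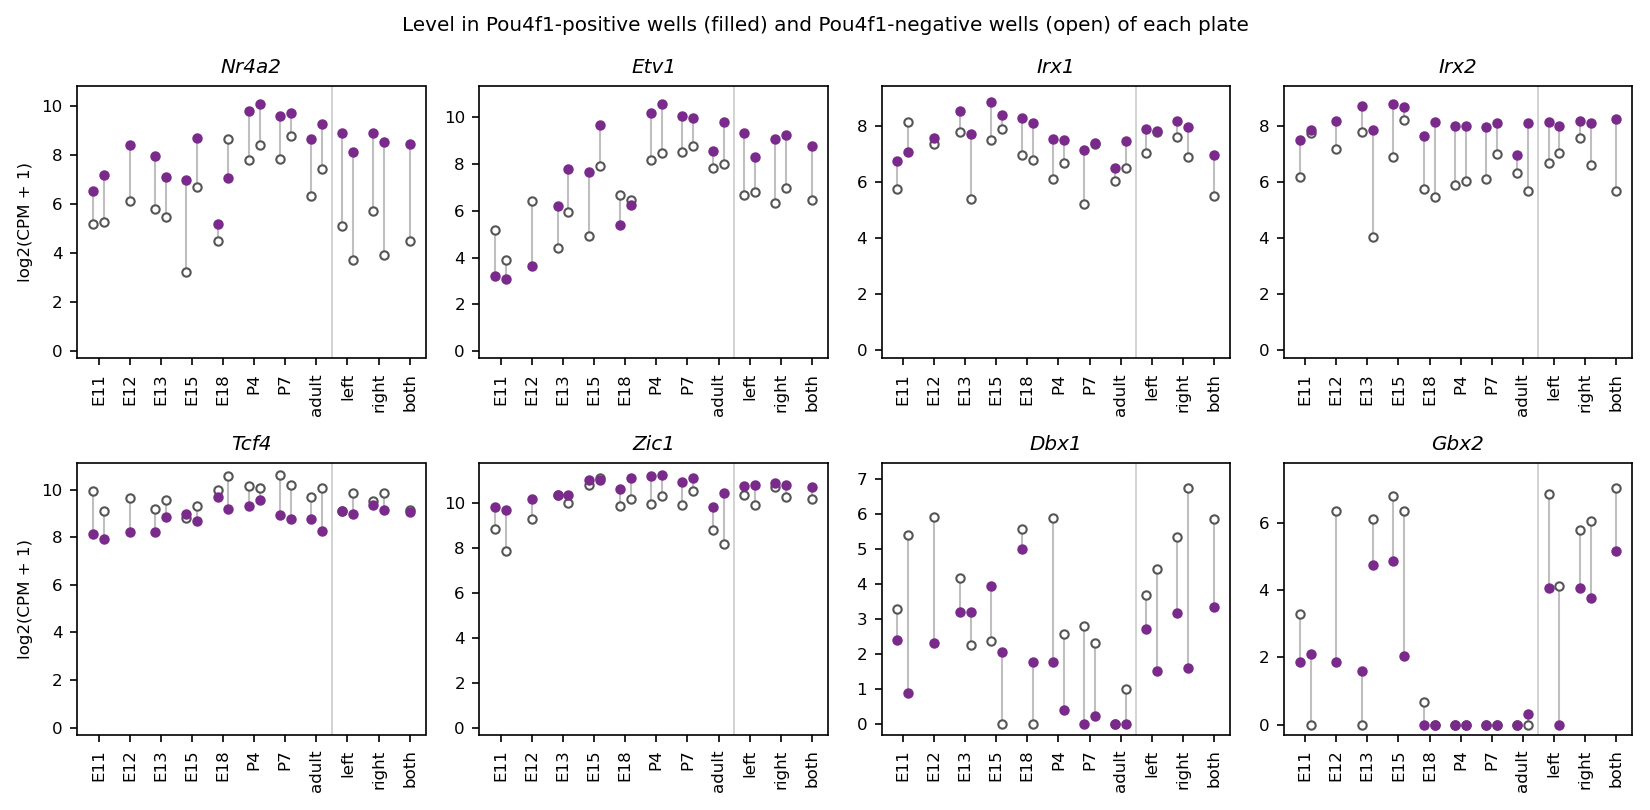
Level in Pou4f1-positive (filled) and Pou4f1-negative (open) wells of each plate, as log2(CPM + 1), for the 8 genes; each pair of joined points is 1 plate, ordered by stage, with side-separated plates at the right. Irx2 is higher with Pou4f1 on every plate and Tcf4 is lower on all but 1. Nr4a2 is higher on every plate but E18 plate 2, which has 16 negative wells. Etv1 is lower on the plates of E11, E12 and series E18.

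Irx2 was higher in positive wells on 15 of 15 series plates, for example 179.6 against 70 CPM on E11 plate 1 and 272.2 against 50.4 on adult plate 2. The smallest gap was on E11 plate 2, 226.9 against 213.2 CPM. Irx1 was higher on 14 of 15, the exception being E11 plate 2 with 133.2 against 275.2 CPM. Zic1 was higher on 14 of 15, with a single lower plate at E15, 2048.9 against 2183.7 CPM. Tcf4 was lower in positive wells on 14 of 15 plates, for example 280.2 against 973.1 CPM and 243.5 against 554 at E11 and 490.7 against 1556 and 437.1 against 1168 at P7, and was higher on E15 plate 1 with 499.5 against 448.3.

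In the side-separated set of 5 plates at E18, 7 of 8 members differed between Pou4f1-positive and Pou4f1-negative wells by the edgeR test, beside 17.5% of 12962 genes (6.7% higher and 10.8% lower). Nr4a2 was at 470.9, 272.5, 467.8, 366.1 and 342.7 CPM in positive wells and at 33.24, 12.22, 51.94, 14.14 and 21.66 in negative wells, with no overlap. The difference was 3.88 ± 0.21 on the log2 scale (adjusted p = 7.38e-06). Etv1 was at 640.7, 313.7, 540.1, 603.5 and 435.9 CPM against 99.79, 110.1, 79.14, 125.7 and 86.02, also with no overlap, and differed by 2.39 ± 0.17 (1.84e-05). After thinning these differences were 1.28 and 1.41.

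Irx2 was higher with Pou4f1 in this set by 1.47 ± 0.25 (edgeR adjusted p = 0.00213), Irx1 by 0.85 ± 0.18 (0.00848, and 0.0511 without the plate of both sides) and Zic1 by 0.54 ± 0.16 (0.0439, lost under 7 of 13 other settings, among them thinning at 0.29 with 0.152). Tcf4 differed by -0.33 ± 0.15, which did not pass (0.181), and by -0.63 after thinning, which did (0.00271). Tcf4 was again lower in positive wells on 5 of 5 plates, though by little on some. The gap ran from 551.5 against 554.7 CPM on left plate 1 to 496.2 against 926 on left plate 2.

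Dbx1 and Gbx2 went the other way. Dbx1 was at 5.515, 1.87, 8.061, 2.067 and 9.214 CPM in positive wells and at 11.73, 20.37, 39.58, 104.4 and 56.68 in negative wells, which differed by -2.81 ± 0.48 on the log2 scale (edgeR adjusted p = 0.00219). Gbx2 was at 15.74, 0, 15.74, 12.43 and 34.39 CPM against 113.7, 16.29, 54.45, 65.5 and 129.8, and differed by -2.29 ± 0.27 (0.000285). On every plate both genes were higher in negative wells, and the highest Gbx2 value with Pou4f1 came from the plate of both sides.

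Whether the difference between Pou4f1-positive and Pou4f1-negative wells changed from early stages (E11, E13, E15) to late ones (P4, P7, adult) was tested as a difference of differences. By edgeR 0 of 6 members passed, beside 9.97% of 10213 genes, and Etv1 and Zic1 had unadjusted p-values of 0.0186 and 0.0159. The Etv1 difference was 0.82 ± 0.31 larger at late stages on the log2 scale (adjusted p = 0.114) and that of Zic1 0.67 ± 0.25 larger (0.104).

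The wells themselves were counted at thinned depth. Of series wells with Nr4a2, 59.33% also held Pou4f1, as did 61.74% of those with Irx2, 59.74% with Irx1, 56.39% with Zic1, 54.54% with Etv1 and 45.41% with Tcf4, against 52.88% of all wells. For Gbx2 this was 8 of 28 wells (28.57%) and for Dbx1 11 of 48 (22.92%). In the side-separated set, where 46.78% of all wells held Pou4f1, the shares were 70.74% for Nr4a2, 64.22% for Irx2, 63.78% for Etv1, 62.32% for Irx1, 50.11% for Zic1 and 42.59% for Tcf4. For Gbx2 they were 6 of 48 (12.5%) and for Dbx1 3 of 43 (6.977%). Wells are pooled here over series plates whose Pou4f1 share ran from 17.62% to 73.77%, and they are not replicates.

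Plate by plate, the thinned share of wells with the gene was higher in Pou4f1-positive wells on 15 of 15 series plates for Zic1 (median difference 6.07 percentage points), 14 of 15 for Irx1 (6.69), 13 of 15 for Nr4a2 (7.37) and Irx2 (7.33) and 11 of 15 for Etv1 (1.81). It was lower on 13 of 15 for Tcf4 (-11.1). Dbx1 was lower on 8, higher on 2 and equal on 5 (median -0.2), and Gbx2 was lower on 6, higher on 1 and equal on 8 (median 0). In the side-separated set it was higher on 5 of 5 plates for Nr4a2 (23.8), Etv1 (20.2), Irx2 (19.3) and Zic1 (10.2) and on 4 of 5 for Irx1 (17.1), and lower on 5 of 5 for Tcf4 (-10.2), Gbx2 (-5.36) and Dbx1 (-5.14).

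**Figure D3:**
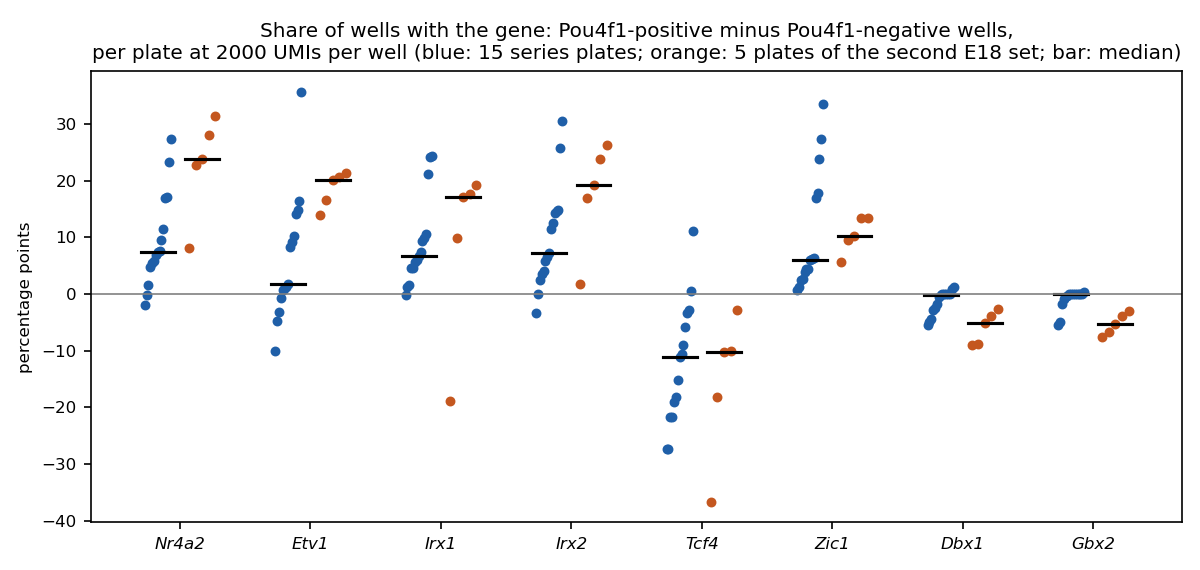
Share of wells that held each gene among Pou4f1-positive minus among Pou4f1-negative wells, in percentage points after thinning every well to 2000 UMIs; each point is 1 plate, blue for the series and orange for the side-separated set, and bars are medians. Nr4a2, Etv1 and Irx2 lie above 0 on all 5 side-separated plates and Tcf4 lies below 0 on all 5.

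Because Nr4a2, Etv1 and Irx2 stood with Pou4f1 in the side-separated set, the 250 bases before their RefSeq start sites (GRCm38.p6) are shown beside those of Pou4f1. Capitals mark the E-box CAGNTG read on either strand, the class of sequence that E-proteins such as Tcf4 bind. A RefSeq promoter entry was at hand for 6 of the 8 members, and none for Irx1. The windows are chr2:57124004-57124253 (minus strand) for Nr4a2, chr12:38779832-38780081 (plus strand) for the first start of Etv1, which lies within the annotated span of the gene but in no exon, chr13:72628570-72628819 (plus strand) for Irx2 and chr14:104468000-104468249 (minus strand) for Pou4f1.
Nr4a2: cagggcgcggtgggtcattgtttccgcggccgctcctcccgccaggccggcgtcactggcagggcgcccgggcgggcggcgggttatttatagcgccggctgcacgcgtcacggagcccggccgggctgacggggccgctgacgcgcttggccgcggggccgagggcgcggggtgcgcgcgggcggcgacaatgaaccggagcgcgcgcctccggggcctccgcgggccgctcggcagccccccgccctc
Etv1: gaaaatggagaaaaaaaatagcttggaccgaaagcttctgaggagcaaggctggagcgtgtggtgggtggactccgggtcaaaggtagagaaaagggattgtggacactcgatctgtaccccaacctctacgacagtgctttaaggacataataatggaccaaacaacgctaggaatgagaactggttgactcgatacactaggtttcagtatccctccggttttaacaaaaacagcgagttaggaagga
Irx2: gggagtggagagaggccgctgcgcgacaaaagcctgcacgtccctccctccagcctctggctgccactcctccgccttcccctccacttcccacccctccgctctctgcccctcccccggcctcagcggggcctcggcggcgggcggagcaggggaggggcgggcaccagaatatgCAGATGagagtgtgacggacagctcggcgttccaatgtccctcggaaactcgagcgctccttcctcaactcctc
Pou4f1: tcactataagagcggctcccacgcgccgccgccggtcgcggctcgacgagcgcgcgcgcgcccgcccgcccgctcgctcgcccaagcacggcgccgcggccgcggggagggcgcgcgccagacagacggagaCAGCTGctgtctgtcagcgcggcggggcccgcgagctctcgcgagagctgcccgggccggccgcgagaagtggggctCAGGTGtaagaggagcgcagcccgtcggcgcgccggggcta
The Irx2 window holds 1 E-box and the Pou4f1 window 2, while the windows of Nr4a2 and of the first Etv1 start hold none. The window of the second Etv1 start, which is not printed, holds 1. Of 32851 promoter windows of the same length, 44.82% hold at least 1, so a match is a description of the letters and not a site. The windows also differed in composition, with 80% G and C for Nr4a2, 68.4% for Irx2 and 46.4% for Etv1, against a median of 52.4%. The motifs TAATTA, AAAGGTCA and CCGGAAGT, read on both strands, were in 4.84%, 1.34% and 2.88% of all windows and in none of the windows of the members or of Pou4f1.

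Members were then paired within wells at thinned depth, as a description with no test. Etv1 was found more often in wells with Nr4a2 than without on 14 of 15 series plates, by a median of 19.54 percentage points, and on 5 of 5 side-separated plates, by 44.35 points. On the latter, 62 of 96, 8 of 11, 70 of 105, 20 of 41 and 32 of 58 wells with Nr4a2 also held Etv1. Irx2 was found more often in wells with Irx1 on 11 of 15 plates (median 15.5 points) and on 4 of 5 (18.78 points). The series spans several stages, and the side-separated set holds E18 alone.

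**Figure D4:**
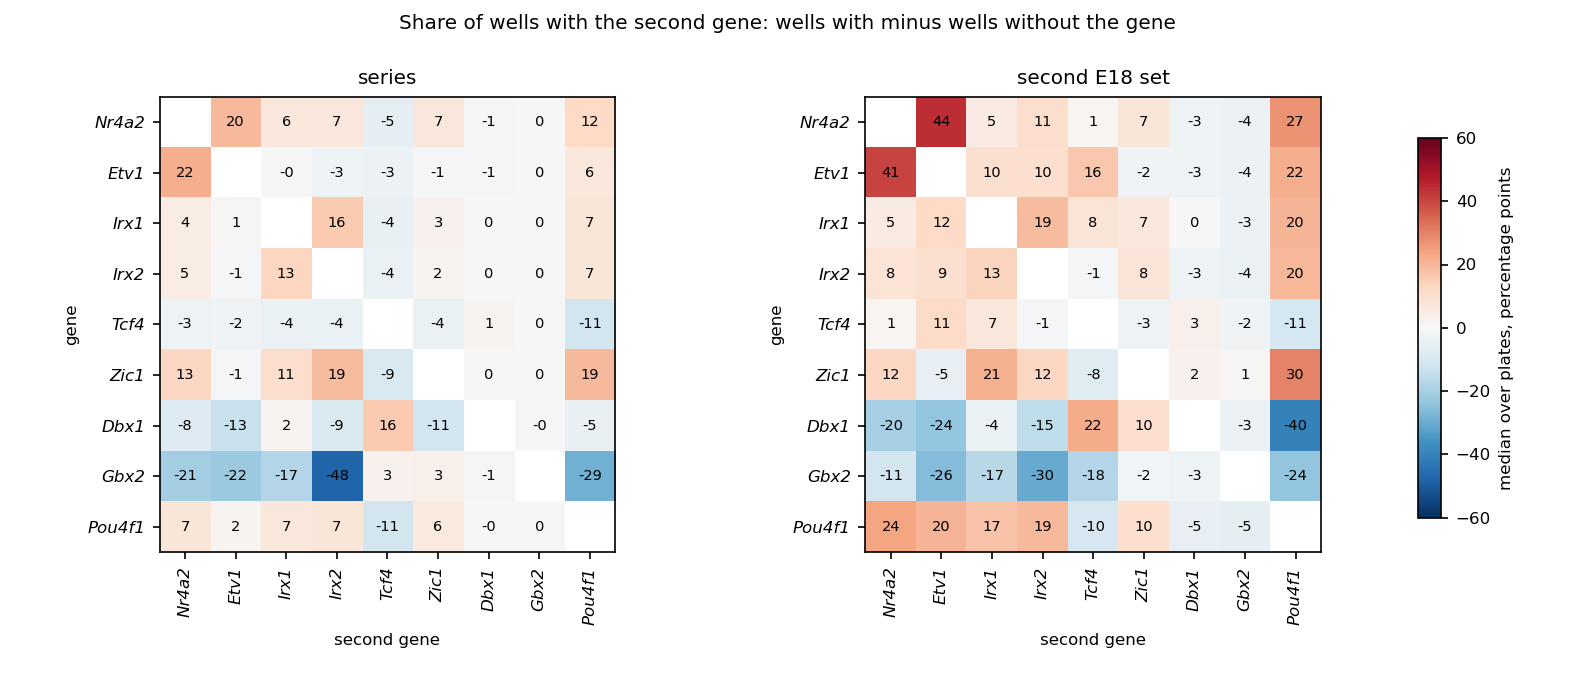
Difference in the share of wells with the column gene between wells with and without the row gene, in percentage points at thinned depth, as the median over plates, for the series (left) and the side-separated set (right). The Nr4a2 and Etv1 pair is at 44.35 points in the side-separated set. There Dbx1 with Pou4f1 is at -40.47 points, over 4 plates with 5 to 24 Dbx1 wells each.

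Dbx1 wells kept another company. Plates entered a pair count with at least 5 wells with and 5 without the gene. For Dbx1 this left 3 series plates, with 6, 8 and 15 Dbx1 wells, and 4 side-separated plates, with 5, 8, 5 and 24. On these plates Pou4f1 was found less often in wells with Dbx1 (median differences of -4.553 points in the series and -40.47 in the side-separated set) and Tcf4 more often (15.83 and 22.28 points). Among all kept side-separated wells, 110 held Dbx1 and 972 did not. Hes5, a Notch target of radial progenitors, was in 45.45% of the former and 12.65% of the latter, Sox2 in 78.18% and 36.11%, the neurogenic factor Neurog2 in 30.91% and 5.864%, and the proliferation marker Mki67 in 19.09% and 4.115%. Gpr151, a receptor of mature habenula neurons, was in 4.545% and 22.53%. Each of these differences had the same sign on 4 of 4 plates. The shares pool wells over plates, and 56 of the 110 Dbx1 wells lay on the plate of both sides. Progenitor markers summed to 1637.4 CPM on that plate and to 520.8 to 905.7 on the plates of single sides. The part of this plate difference in the sizes of the contrasts was not tested.

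Gbx2 wells were read in the same way. No thinned side-separated well held both Gbx2 and Dbx1. Only 43 held Dbx1 and 48 held Gbx2, so few shared wells would arise even if the genes were unrelated. In the series Gbx2 was found more often in wells with Dbx1 on 1 of 3 plates, by 15.21 points, and less often on 2. The higher plate was that of E12, where 16.67% of only 6 Dbx1 wells held Gbx2, against 1.46% of the rest. Irx2 was found less often in thinned wells with Gbx2 than without on 3 of 3 series plates with enough wells (a median difference of -47.93 points). The same held on 3 of 3 side-separated plates (-30.46 points). These differences rest on few Gbx2 wells, 5, 8 and 6 on the series plates and 9, 9 and 26 on the side-separated ones. Irx2 was in 0% to 20% and 0% to 11.11% of them. In the 114 unthinned wells with Gbx2, Pou4f1 was in 37.72% against 70.66% of the rest, Gpr151 in 7.018% against 22.31%, and Lhx9 in 95.61% against 81.61%. Of the 8 genes of the thalamus marker list, Rora, a nuclear receptor, was in more Gbx2 wells, 75.44% against 62.29%, and Lef1, a Wnt effector, in fewer, 43.86% against 69.42%. Shares of the other genes of that list are not given, so these values do not describe the list as a whole. Of these 114 wells 63 lay on the plate of both sides, where Pou4f1 was in 46.25% of all kept wells against 73.68% to 81% on the others, and each difference had the same sign on 4 of 4 plates with enough wells. Over both sets wells with Gbx2 were deeper on 11 of 14 plates, and the part of depth in the higher shares of Lhx9 and Rora was not tested. The thalamus marker list without Gbx2 summed to 1026 CPM on the plate of both sides, where Gbx2 was highest at 77.89 CPM, and to 570.2 and 592.5 on the left and 565.5 and 632 on the right. That plate held 512 Gbx2 UMIs in 63 wells.

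Nr4a2 wells of this set were read by the same kind of shares. Of 630 wells with Nr4a2, 13.49% held Chat, the acetylcholine-synthesising enzyme of the ventral medial habenula, against 1.106% of the rest, 31.59% held Gpr151 against 5.531%, 10.95% held Hes5 against 23.01%, and 7.619% held the immediate early gene Fos against 21.02%. Each of these differences had the same sign on 5 of 5 plates. These wells were not thinned, and wells with Nr4a2 were deeper on every plate, so the part of depth in the higher shares of Chat and Gpr151 was not tested.

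Levels in wells chosen by a marker UMI were read within the side-separated set, where all plates share a stage. In Chat and Neurog2 wells of the same plate, Etv1 was at 1633.5 and 138.2 CPM on left plate 1, 1057.3 and 191.9 on right plate 1, and 1415.2 and 106.9 on the plate of both sides. Nr4a2 was at 918.6 and 39.91, 796.2 and 261.2, and 728.5 and 42.5 CPM on these plates. Both genes were lower in Neurog2 wells, those of neurogenic progenitors, than in Chat wells on 3 of 3 plates. The Etv1 median over plates was 1033.1 CPM in Gpr151 wells, 668 in wells with Tac2 (a tachykinin of the medial habenula), 412 in Hes5 wells (228.8 to 624.7) and 360.7 in Tac1 wells (245.2 to 493.8), and the last ranges overlap. Of 167 Hes5 wells counted here, which are not all Hes5 wells of the set, 84 also held Pou4f1.

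The other members were spread differently over these wells. Tcf4 had medians of 852.6 CPM in Mki67 wells and 824.3 in Hes5 wells, against 271.2 in Gpr151 wells, with 766.9 in Chat wells. Zic1 was at 1869.9 CPM in Chat wells and 1182.5 in Hes5 wells. Dbx1 was at 94.07 CPM in Neurog2 wells, 79.98 in Mki67 wells and 45.44 in Hes5 wells. The plates with enough wells differ between markers, from 2 for Mki67 to 5 for Gpr151, and these medians carry no test.

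Left and right habenula at E18 were compared over 2 plates each. By edgeR 0 of 8 members and 0 of 15489 genes passed (0% called), 182 genes had an unadjusted p under 0.05, and DESeq2 called 1 gene. Dbx1 was at 6.589 and 4.325 CPM on the left and 12.68 and 18.76 on the right, which did not overlap. It differed by -1.42 ± 0.42 on the log2 scale (edgeR unadjusted p = 0.00603, adjusted 0.9999). These Dbx1 levels rest on 39 and 8 UMIs on the left and 70 and 65 on the right. On right plate 2, 22 of the Dbx1 UMIs lay in 1 well. Gbx2 was at 32.66 and 2.163 CPM left and 21.41 and 21.09 right, and its difference of -0.1 became -3.26 with an adjusted p of 0.0254 by edgeR without left plate 1. That fit leaves left plate 2, with 4 Gbx2 UMIs, as the only left plate, and its spread is taken from the right plates. Irx1 at 213.3 and 223.6 against 271.7 and 227.2 CPM, Tcf4 at 552 and 553.2 against 667.5 and 628.8, and Zic1 at 1647.3 and 1624.7 against 1833.9 and 1664.6 were likewise lower on both left plates than on both right plates, and did not pass the test. Irx2, at 247.4 and 234.1 against 274.1 and 245.1 CPM, overlapped between the sides, as did Nr4a2 and Etv1. The share of all genes without overlap between the sides is not given here. The lack of overlap therefore does not set Dbx1, Irx1, Tcf4 or Zic1 apart. Red-cell genes summed to 19048 and 17219 CPM on the left plates and 3410 and 265.5 on the right, and their part in these levels was not tested.

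The relatives of the members, 16 genes of the same families, were read from the same fits. Of 15 tested, 12 differed between stages, beside the 46.4% of all genes. From E11 to E13 Zic5 rose by 3.05 and Zic4 by 1.96 on the log2 scale. From E18 to P4 Irx6 rose by 3.08 and Nr4a1 by 2.14, and Tcf3 fell by 1.49 and Tcf12 by 0.78. From P7 to adult Zic5 fell by 1.86 and Zic4 by 1.52. All of these passed the edgeR test.

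Between Pou4f1-positive and Pou4f1-negative wells of the series, 7 of 10 tested relatives were called, beside 35.8% of all genes, with Irx5 (0.88), Zic2 (0.77), Zic5 (0.73) and Zic4 (0.57) higher and Nr4a1 (-1.8), Tcf3 (-0.86) and Tcf12 (-0.64) lower. The median over those tested was 0.51, beside 0.03 over all genes. In the side-separated set Irx6 was at 0 in the negative wells of all 5 plates and entered the test through the positive wells alone, so it is left out of the count. Of the other 13 relatives tested 6 were called, beside 17.5% of all genes, with Nr4a3 (2.09) and Irx5 (1.56) higher and Etv5 (-2.31), Etv4 (-1.96), Dbx2 (-1.76) and Tcf12 (-0.65) lower. In the series, the E-proteins Tcf3 and Tcf12 had the sign of Tcf4, while Nr4a1 had the sign opposite to Nr4a2.

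A list of 27 other regional factors of habenula, thalamus, pretectum and their progenitors gave 19 of 25 called between stages, beside 46.4% of all genes. With Pou4f1 in the series, 10 of 15 were called (35.8% of all genes), with Lhx9 (1.46), Nhlh2 (1.35), Tcf7l2 (0.65) and Lef1 (0.55) higher and Id3 (-4.05), Neurog2 (-2.54), Id4 (-2.3), Pax6 (-2.24), Barhl2 (-2.19) and Rora (-1.88) lower. In the side-separated set 13 of 17 were called (17.5% of all genes), 3 higher (Nhlh2, Lhx9 and Lef1) and 10 lower, led by Barhl2 (-3.22), Lhx1 (-2.81) and Neurog2 (-2.76). Of the dissociation-response genes, 11 of 11 tested were lower in Pou4f1-positive wells of the series, with a median of -1.8 and beside 16.6% of all genes, and 3 of 8 in the side-separated set (10.8% of all genes), Fos (-2.65), Egr1 (-1.33) and Btg2 (-1.11). Nr4a2 was higher in positive wells in both sets.

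For each member the 3 genes whose level ran most like its own over the 15 series plates were named by Pearson's r of log2(CPM + 1) among 12750 genes, as a description in which all points share plates and depth. These were D130004A15Rik (0.961), Tspan13 (0.959) and Gm42888 (0.955) for Nr4a2, and Nxph1 (0.973), Vangl1 (0.967) and Synpr (0.963) for Etv1. For Irx1 they were Enc1 (0.925), Mtss1 (0.924) and Lrrc4b (0.879), and for Irx2 Lhx9 (0.927), Lonrf1 (0.903) and Plk2 (0.902). Tcf4 ran with Nfix (0.938), Impad1 (0.92) and Ptn (0.905), and Zic1 with Foxo6 (0.952), Neurod6 (0.934) and Celf2 (0.93). Dbx1 ran with Kcne1l (0.942), Pcnx3 (0.931) and Snw1 (0.928) and Gbx2 with Phc2 (0.884), Uggt1 (0.878) and 9030612E09Rik (0.865), and both of these rest on few plates with more than a few UMIs. No member was among the 3 nearest genes of another.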

How the data were processed

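Mouse habenula cells were measured on 20 CEL-Seq2 plates. The authors deposited expected counts (UMI counts corrected for collisions) per gene and well, as total, spliced and unspliced tables. For 100% of the values above 0 the correction for 4096 possible UMIs could be inverted to a whole number, to within 1e-06. Reads were aligned with STAR 2.5.3a on mm10, per the submitters' processing notes, and the sources used here do not give the strand or annotation of the counting. Spike-in rows (92 per table) were left out of totals.

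Wells were kept and summed per plate and, where compared, per Pou4f1 state, and rounded to whole numbers, since the tables hold expected counts where a test on counts had been planned. Sums were tested with edgeR 4.0.16 (limma 3.58.1, R 4.3.3; filterByExpr, TMM, quasi-likelihood test, Benjamini-Hochberg over all genes tested, threshold 0.05). Pou4f1 comparisons had plate as a block and needed at least 10 wells of each kind on a plate. Summaries were made with pandas 2.3.3, scipy 1.17.1, numpy 2.4.6 and matplotlib 3.10.9 in Python 3.11.15. The scripts were tested on simulated data. Alternatives were DESeq2 1.42.0, no filter on low counts, whole UMIs, wells with at least 2000 counts, neuron-marker wells (5 of 10 markers), thinning, a replicate block or no plate block, each plate left out, and, chosen after the data were seen, the 4 plates with the lower unthinned Pou4f1 share of their stage left out. At thinned depth adult plate 1 was not the lower of its stage. Genes were located in GENCODE M21 (GRCm38), in which 37938 of 37994 series gene IDs matched.

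The members and gene lists were chosen with earlier results of these data known. All 8 members and Pou4f1 are named, then the 3 genes most like each member among those with a mean of at least 5 CPM, and list genes that passed a test, of which some are not reported here. For the plate of both sides, E1 in the title was set aside for the E18 of the remaining labels. Plates were sequenced 5 at a time, per the labels, and which ran together is not given, so run and stage cannot be told apart.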

Additional observations from a re-analysis of the deposited data

Results flagged for a closer look

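The difference between Pou4f1-positive and Pou4f1-negative wells took, on every plate of a stage, the sign opposite to that on every plate of other stages for 2 members. Etv1 was lower in Pou4f1-positive wells on both E11 plates, with a mean difference of -16.43 CPM (7.945 against 24.37), and on both E18 plates of the series, with a mean difference of -35.47 CPM (58.11 against 93.58). On E18 plate 2 the values were 74.57 against 86.57 CPM, and 3 of only 16 negative wells held Etv1, so this sign rests on few wells. Etv1 was higher on every plate of E13, E15, P4, P7, the adult and the side-separated E18 set. On the single E12 plate it was lower, 11.62 against 85.25 CPM. Dbx1 was higher in Pou4f1-positive wells on both E15 plates, by a mean of 6.655 CPM (1 of 36 and 0 of 30 negative wells held the gene), and lower on every plate of E11, P4, P7 and the side-separated set. Each P7 plate held 2 Dbx1 UMIs in all, so the Dbx1 signs rest on counts near 0. These differences between stages were not tested.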

How the results depend on the processing

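No member reversed its called direction under any alternative. The number of member calls between successive stages (3) was 15 without the 4 plates of lower Pou4f1 share, 7 with DESeq2 and 13 with no filter on low counts, and 1 to 11 when each plate was left out (1 without P4 plate 2, 11 without E18 plate 2). Over all genes, differences between stages (8105) numbered 12195 without those 4 plates. Calls between successive stages (4350) numbered 13012 without them, 7232 with DESeq2, 1995 with each pair of stages fitted alone, 11147 with no filter and 957 to 10650 with a plate left out. Pou4f1 calls in the series (3632) numbered 5953 with DESeq2, 6500 with no filter and 493 after thinning. Those in the side-separated set (2273) numbered 3416 with no filter, 623 after thinning and 1193 to 2347 with a plate left out (1193 without the plate of both sides). Changes of the Pou4f1 difference from early to late were called for 2 members with no filter, 1 in wells with at least 2000 counts and 0 to 2 with a plate left out, and for 568 genes in neuron-marker wells, 42 after thinning and 528 to 1228 with a plate left out (1018 as reported). Left and right differed in 0 to 1 members and 18 to 39 genes with a plate left out, in 1 gene with DESeq2 and in 37 with no filter. The causes of these changes in number were not tested. With DESeq2 scaling the higher share of E13 to E15 calls was 32.24% against 56.25%.

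Over 21 pairs of stages the correlation of the deviations of plates with the same replicate number ran from -0.469 to 0.341 (median 0.0262, 6 over 0.1), so the numbers were not taken to pair the series plates. For left and right it was 0.271 in 1 comparison, too few to decide. With a replicate block, 6 members (7200 genes) differed between stages, 7 in Pou4f1-positive wells (7526 genes), 4 successive member differences passed (3626 genes), and 0 members and 6 genes differed between left and right. Without the plate block, 6 members (3955 genes) differed by Pou4f1 in the series and 6 (2044 genes) in the side-separated set, where the Zic1 call was lost (0.52, adjusted p = 0.0833).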

Other observations

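UMIs of Gbx2 and Dbx1 were held by few wells: the 5 wells with most held 29.49% to 100% of Gbx2 UMIs on a plate and 30.1% to 100% of Dbx1 UMIs. On the plate of both sides 203 Dbx1 UMIs lay in 56 wells.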
